A study of Drosophila melanogaster with 6 samples.

Results

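The gustatory receptor (Gr) and ionotropic receptor (Ir) genes of Drosophila melanogaster were described in fly heads, with high-fat diet (HFD) set against normal diet (ND). The members were chosen by name, as every gene whose FlyBase symbol is Gr or Ir followed by a number and a letter. This gave 117 genes, 58 Gr and 59 Ir, of the 11922 gene identifiers in the expression tables. A further 9 genes of the same naming pattern were not analysed here.

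RNA sequencing had been done on heads with their associated tissue from 5-day-old wild-type Oregon-R virgin females. The HFD flies were kept for 5 days on the normal food with coconut oil added, and the ND flies ate the normal food of yeast, corn and agar. Each diet had 3 samples, and each sample pooled the heads of several flies. All 6 samples shared strain, sex and age, and no transgene or mutation is given for them. A figure legend of the study calls the 3 samples of a diet biological replicates, and the labels only number them, so the p-values measure the spread between these pools of flies.

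Gr genes encode membrane proteins that form ion channels opened by sugars or bitter compounds in taste neurons, or by carbon dioxide in antennal neurons. Ir genes are relatives of the ionotropic glutamate receptors. A tuned Ir subunit is joined by a broadly expressed co-receptor subunit (Ir25a, Ir8a, Ir76b or Ir93a), and the complexes detect amines, acids, salts, fatty acids, humidity and temperature. Both families act in small numbers of neurons on the labellum, pharynx, antenna and legs, and of these organs the legs are no part of a head sample. In bulk RNA, fewer cells of a type and less RNA per cell cannot be told apart.

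Values were FPKM (fragments per kilobase of transcript and per M mapped fragments, with M for mega), as the authors deposited them. Genes averaging 0.5 FPKM or more across all 6 samples were tested. The test was limma on log2(FPKM + 1), two-sided, with Benjamini-Hochberg adjustment over all 8362 genes that passed this level. Because of the added 1, a log2 difference comes out smaller than the true change where the FPKM is low. The depth was not given in the files and was estimated from the steps between low FPKM values. It came to 8.90, 5.30 and 11.8 M fragments in HFD replicates 1, 2 and 3, against 9.49, 8.13 and 10.2 M in ND replicates 1, 2 and 3. The fragment numbers given below were FPKM turned back with these depths and are estimates.

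ND replicate 3 stood apart from the other libraries. Its correlation with each of them was 0.842 to 0.920, and its summed level of midgut digestive enzyme genes was 73.8 FPKM. The same sum was 7262 to 21631 FPKM in the HFD samples, and it was 22862 and 24533 FPKM in ND replicates 1 and 2, with 12 of the 13 listed genes in the tables and none at 0 throughout. Of 5 neuronal markers 4 were in the tables, with none at 0 throughout, and they summed to 190 to 211 FPKM in HFD heads and 189 to 258 FPKM in ND heads, highest in ND replicate 3. Of 6 fat body markers 5 were in the tables, with none at 0 throughout, and their sum of 34907 to 38553 FPKM in HFD heads lay above the 25566 to 33311 FPKM in ND heads. Nearly all of this sum was the yolk protein genes Yp1, Yp2 and Yp3, and the storage protein gene Lsp2 went the other way, at 63.0, 125 and 84.6 FPKM in HFD heads against 306, 571 and 183 FPKM in ND heads. Values without this library are given beside the sums of each family and some of the genes. A gene without such a value can depend on this library too. The part of these tissues in the results was not tested.

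Few of the receptor genes were measured well in whole heads. An average of 0.5 FPKM or more was reached by 22 of the 117 genes (18.8%), 7 Gr and 15 Ir, against 70.1% of all genes. Among the 58 odorant receptor genes in the same tables, 24 reached that level (41.4%). Another 53 receptor genes were above 0 in at least 1 sample but stayed under 0.5 FPKM on average, and 42 (28 Gr and 14 Ir) were listed at 0 in all 6 samples. A listing at 0 did not show that a gene was silent, because 30 genes with a median over 10 FPKM were also listed at 0 in a sample other than ND replicate 3. At the median transcript length of the members, 3 fragments corresponded to 0.195, 0.328 and 0.148 FPKM in HFD replicates 1 to 3, against 0.183, 0.214 and 0.17 FPKM in ND replicates 1 to 3.

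**Figure D1:**
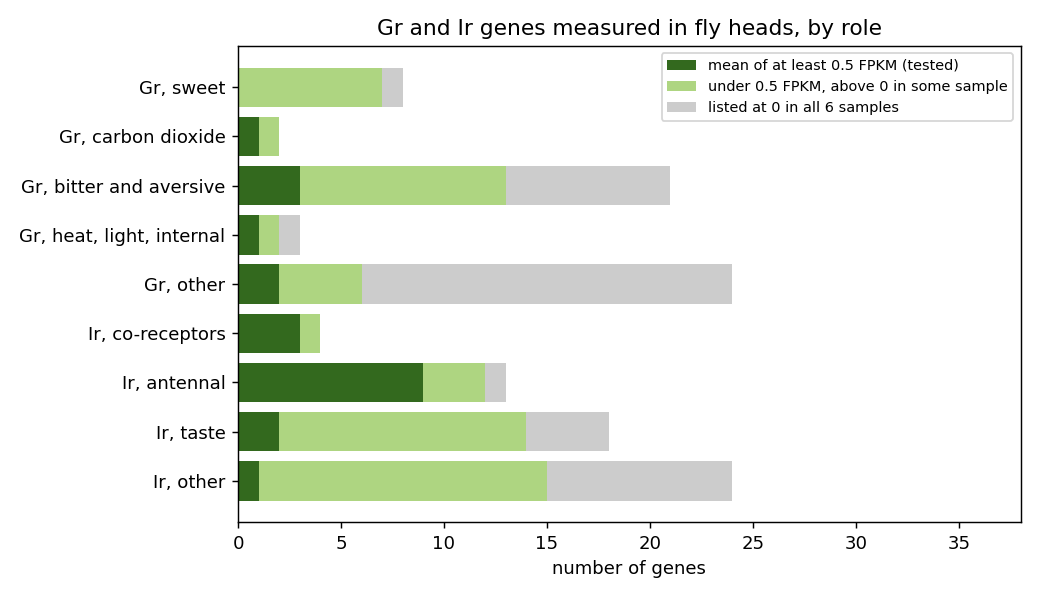
Number of Gr and Ir genes in each role class, split into those averaging 0.5 FPKM or more (dark green), those under 0.5 FPKM but above 0 in some sample (light green) and those listed at 0 throughout (grey). The antennal Ir class had 9 of 13 genes in the dark part and the co-receptors 3 of 4, whereas no sweet receptor gene of 8 reached that level.

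The members above 0 numbered 48, 37 and 50 in HFD replicates 1 to 3, against 44, 41 and 52 in ND replicates 1 to 3. The count was lowest in HFD replicate 2, the library with the fewest estimated fragments. Only 25 members were above 0 in all 6 samples, while 33 were above 0 in 2 to 5 samples and 17 in exactly 1. Of the 75 members above 0 somewhere, 34 had fewer than 10 estimated fragments over all 6 samples together.

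By role, the 4 co-receptors and the receptors of the antenna made up most of what was measured. The 4 genes with the highest levels, Ir76a, Ir62a, Ir25a and Ir76b, gave 50.5% of the summed FPKM of all members. Even the highest of them, Ir76a, stood only at the 53.0 percentile of all genes by mean FPKM, and the highest Gr gene, Gr39a, stood at the 36.8 percentile. The levels of single genes below are FPKM, which is per length, so that genes can be set against each other.

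The co-receptor Ir25a, which partners many tuned Ir subunits, had 4.0, 5.44 and 4.67 FPKM in HFD replicates 1 to 3, against 4.26, 4.42 and 5.05 FPKM in ND replicates 1 to 3. The samples of the diets overlapped, and the log2 difference was 0.03, with an interval of -0.29 to 0.34. Its partner Ir76b, a channel subunit in salt, amino acid and fatty acid taste, had 4.67, 5.76 and 4.89 FPKM in HFD heads, against 3.90, 3.18 and 4.65 FPKM in ND heads. All HFD samples lay above all ND samples, but the highest ND sample and the lowest HFD sample were only narrowly apart. The means were 5.11 ± 0.578 FPKM on HFD and 3.91 ± 0.734 FPKM on ND (SD, n = 3 each), a ratio of 1.31. The log2 difference was 0.32 ± 0.15 (SE), with a limma p of 0.0704 and an adjusted p of 0.783, and the exact permutation test of the means gave p = 0.10, the smallest that 3 against 3 samples allow.

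The FPKM of Ir76b divided by that of Ir25a in the same library was 1.17, 1.06 and 1.05 in HFD replicates 1 to 3, against 0.914, 0.719 and 0.921 in ND replicates 1 to 3. This ratio was looked at after the values of both genes had been seen and was not tested. The same ratio for Ir8a overlapped, at 0.246, 0.183 and 0.332 on HFD against 0.239, 0.275 and 0.246 on ND, as did that for Ir93a, at 0.0901, 0.0393 and 0.0817 on HFD against 0.137, 0.0625 and 0.0626 on ND. Ir8a, the co-receptor of acid-sensing Ir subunits in the antenna, was at 1.18 ± 0.323 FPKM on HFD and 1.16 ± 0.121 FPKM on ND (SD, n = 3 each). Ir93a, the co-receptor of the humidity and cooling receptors, stayed under the tested level, at 0.360, 0.213 and 0.381 FPKM in HFD heads, against 0.583, 0.276 and 0.316 FPKM in ND heads. The summed co-receptor level was 10.01, 12.4 and 11.5 FPKM on HFD, against 9.77, 9.09 and 11.2 FPKM on ND, and the diets overlapped.

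In the annotation used for positions (BDGP6), the single-transcript gene Ir76b (FBgn0036937) lies on chromosome 3L from 20108484 to 20111534 on the minus strand, and it overlaps no exon of another gene. Ir25a (FBgn0031634) lies on chromosome 2L from 4830846 to 4835300 on the minus strand with 4 transcripts. The build and annotation behind the FPKM values themselves are not given in the sources used here.

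**Figure D2:**
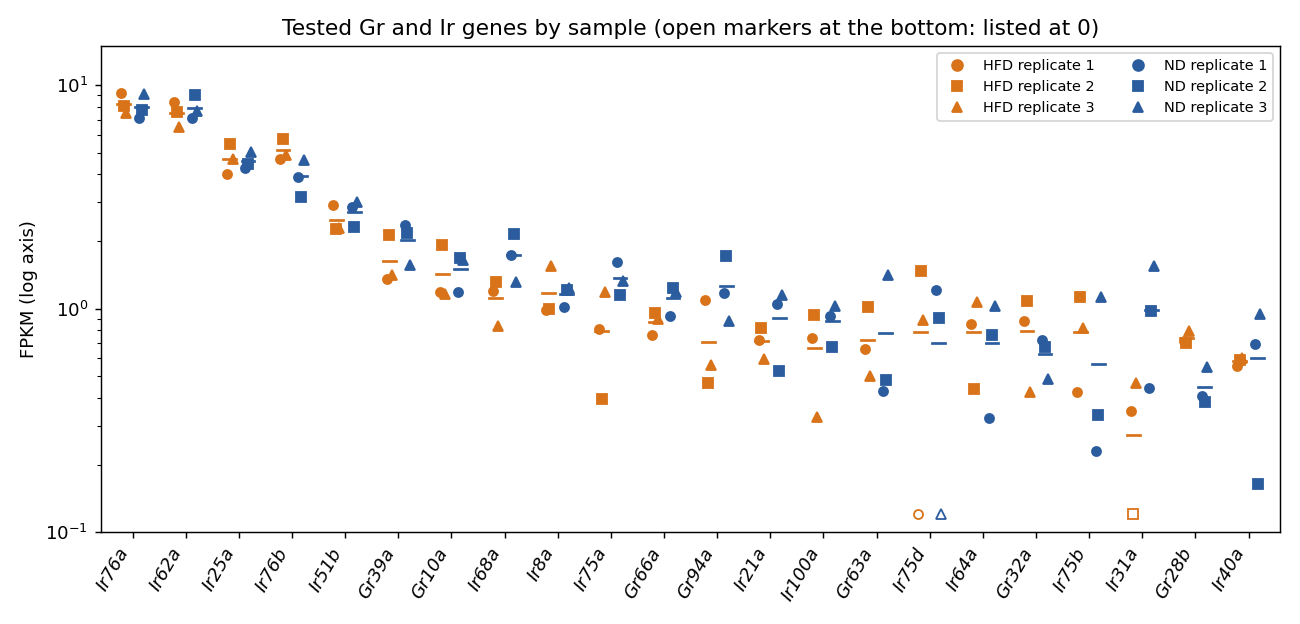
FPKM of the 22 tested Gr and Ir genes on a log axis, with a point for each sample, HFD (orange) left of ND (blue), and a dash for the mean of each diet; open markers at the bottom stand for samples listed at 0. Ir76a, Ir62a, Ir25a and Ir76b stand above the rest, and most genes under 1 FPKM scatter within a diet as widely as between diets.

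The tuned antennal receptors were the Ir class with the most genes measured. Ir76a, which detects amines, had the highest mean of all members, at 9.20, 8.08 and 7.53 FPKM in HFD heads, against 7.13, 7.79 and 9.09 FPKM in ND heads. The diets overlapped, with a log2 difference of 0.04 ± 0.12 (SE). Ir75a and Ir64a are both receptors for acids. Ir75a had 0.811, 0.395 and 1.19 FPKM on HFD, against 1.62, 1.15 and 1.34 FPKM on ND. HFD replicates 1 and 2 lay below every ND sample, HFD replicate 3 lay among them, and the log2 difference of -0.42 ± 0.21 (SE) had a limma p of 0.0976 and an adjusted p of 0.833.

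Ir64a, at 0.855, 0.436 and 1.08 FPKM on HFD against 0.325, 0.760 and 1.02 FPKM on ND, overlapped between the diets. Ir75b, the gene next to Ir75a on chromosome 3L, had 0.422, 1.13 and 0.818 FPKM on HFD, against 0.232, 0.335 and 1.12 FPKM on ND. The spread within each diet was wide, since the highest ND sample, replicate 3, was just below the highest HFD sample. The log2 difference of Ir75b was 0.22 over all samples and 0.46 without ND replicate 3, with a limma p of 0.114 in the second. Ir31a, a receptor for a keto acid, had 0.347, 0 and 0.467 FPKM on HFD, against 0.441, 0.9746 and 1.56 FPKM on ND. Its mean was 0.271 ± 0.242 FPKM on HFD and 0.991 ± 0.559 FPKM on ND (SD, n = 3 each), the widest log2 difference among the tested members at -0.63 ± 0.28 (SE). It also had the lowest limma p of them, 0.0695 with an adjusted p of 0.783, and 1 HFD sample still lay above the lowest ND sample. The HFD values of Ir31a rested on 7.0, 0 and 12.4 estimated fragments. With an HFD mean under 0.5 FPKM, Ir31a reached the tested level through its ND samples. Without ND replicate 3, its highest library, its log2 difference was -0.43, with a limma p of 0.183. That was narrower than Gr94a at -0.53 and Ir68a at -0.48 without the same library.

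Hygrosensory and thermosensory receptors of the antenna were measured at 0.164 to 2.16 FPKM. Ir68a, needed for sensing moist air, had 1.20, 1.32 and 0.840 FPKM in HFD heads, against 1.74, 2.16 and 1.32 FPKM in ND heads. The HFD samples all lay below the ND samples, although HFD replicate 2 and ND replicate 3 were almost level, at 1.315 and 1.320 FPKM. The means were 1.12 ± 0.248 FPKM on HFD and 1.74 ± 0.421 FPKM on ND (SD, n = 3 each), a ratio of 0.643. The log2 difference was -0.37 ± 0.18 (SE), with a limma p of 0.0872 and an adjusted p of 0.816.

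Ir40a, needed for sensing dry air, had 0.555, 0.587 and 0.601 FPKM on HFD, against 0.698, 0.164 and 0.946 FPKM on ND. The HFD samples were close to each other and lay inside the ND range, with a log2 difference of 0.01. Ir21a, a subunit of the cooling receptor, had 0.727, 0.819 and 0.594 FPKM on HFD, against 1.05, 0.529 and 1.15 FPKM on ND, which also overlapped. An antisense RNA gene shares 2087 exon bases with Ir21a, and without a stated strand setting their reads cannot be told apart.

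The remaining antennal genes were low. Ir75d had 0, 1.47 and 0.892 FPKM on HFD, against 1.21, 0.907 and 0 FPKM on ND. Its transcript shares 2098 exon bases with COX6AL2 on the same strand, and COX6AL2 was highest in the same libraries in which Ir75d was listed at 0, at 2.15 FPKM in HFD replicate 1 and 2.38 FPKM in ND replicate 3. The sum of the pair was 2.15, 2.99 and 2.13 FPKM on HFD, against 2.63, 2.33 and 2.38 FPKM on ND, so the values at 0 for Ir75d are uncertain. Ir92a, the ammonia receptor, was listed at 0 in all HFD samples, against 0.282, 0.136 and 0.162 FPKM in the ND samples. These ND values correspond to only 5.4, 2.3 and 3.4 estimated fragments, near the 3 fragments that a listing at 0 leaves room for, and no fold is given.

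Ir84a, which responds to an aromatic acid of fruit, was above 0 in 2 HFD samples, at 0.527 and 0.0808 FPKM, against 1 ND sample at 0.101 FPKM. Ir75c, next to Ir75a and Ir75b, had 0.30, 0.277 and 0.218 FPKM on HFD, against 0.111, 0.197 and 0 FPKM on ND. These values rested on 5.0, 2.7 and 4.8 estimated fragments on HFD, against 2.0, 3.0 and 0 on ND, which overlapped. The polyamine receptor gene Ir41a was listed at 0 throughout. The summed level of the 13 antennal genes was 14.9, 14.5 and 14.3 FPKM on HFD, against 14.9, 15.1 and 17.7 FPKM on ND, where the highest value was again that of ND replicate 3. Markers of the antenna and palp, of which 6 of 9 were in the tables and none was at 0 throughout, summed to 53.8 to 63.1 FPKM on HFD and 44.9 to 69.1 FPKM on ND, and their highest library was also ND replicate 3.

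Among Ir genes of taste, 2 of 18 were tested. Ir62a, which acts with Ir25a and Ir76b in calcium taste, had 8.41, 7.63 and 6.48 FPKM in HFD heads, against 7.12, 9.09 and 7.64 FPKM in ND heads. The diets overlapped, with a log2 difference of -0.07 ± 0.13 (SE). Ir62a lies within an intron of Iml1 on the same strand, a gene not analysed here, so reads from unspliced Iml1 RNA could have been counted for it. Ir100a, the other tested gene of the class, had 0.737, 0.937 and 0.328 FPKM on HFD, against 0.929, 0.676 and 1.03 FPKM on ND.

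Ir56d, the subunit that acts with Ir25a and Ir76b in fatty acid taste, is the member most directly linked to dietary fat. It was at 0.237, 0.0994 and 0.266 FPKM in HFD heads, against 0, 0.0647 and 0.15 FPKM in ND heads. The fragments behind these values were an estimated 4.0, 1.0 and 6.0 on HFD, against 0, 1.0 and 2.9 on ND. The samples of the diets overlapped, and at this depth no difference could be detected for a gene at so few fragments. Ir7a, which takes part in acetic acid taste, was above 0 in all 6 samples, but with no more than 3 estimated fragments in any of them. The 18 genes summed to 9.77, 8.97 and 7.55 FPKM on HFD, against 8.53, 10.4 and 9.28 FPKM on ND, and most of each sum was Ir62a.

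Among the 24 Ir genes with no role in the lists, only Ir51b was tested. Ir51b had 2.91, 2.26 and 2.30 FPKM on HFD, against 2.85, 2.32 and 3.0 FPKM on ND, which overlapped, with a log2 difference of -0.09. It lies within an intron of row on the opposite strand, which was at 13.98 to 17.3 FPKM. In this class 9 genes were listed at 0 throughout, and Ir60d had all its HFD samples above its ND samples in FPKM. Its estimated fragments were 2.0, 1.0 and 3.0 on HFD, against 0, 0 and 1.0 on ND.

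The bitter and aversive class was the largest among the Gr genes with a role. It had 3 of 21 genes tested and 8 listed at 0 throughout. Gr66a, a marker of bitter taste neurons and part of the caffeine receptor, had 0.762, 0.953 and 0.896 FPKM in HFD heads, against 0.923, 1.24 and 1.19 FPKM in ND heads. Only the lowest ND sample reached into the HFD range, and the log2 difference was -0.18 ± 0.14 (SE). Gr32a, a broadly expressed bitter receptor subunit, had 0.882, 1.08 and 0.425 FPKM on HFD, against 0.726, 0.673 and 0.487 FPKM on ND.

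Gr39a, a gene of 4 transcripts that encodes bitter and courtship receptors, was the highest Gr gene, at 1.36, 2.14 and 1.42 FPKM on HFD against 2.37, 2.18 and 1.57 FPKM on ND. Its log2 difference was -0.20, and the samples overlapped. Gr33a, a bitter co-receptor, stayed under the tested level, at 0.833, 0.239 and 0.372 FPKM on HFD, against 0.514, 0 and 0 FPKM on ND. The class summed to 5.37, 5.38 and 3.74 FPKM on HFD, against 4.99, 4.61 and 4.54 FPKM on ND. The ND samples all lay within the range of the HFD samples.

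None of the 8 sweet receptor genes reached the tested level. Gr64f, the co-receptor of most sugar receptors, was the highest of them, at 0.950, 0.380 and 0.359 FPKM in HFD heads against 0.295, 0.174 and 0.481 FPKM in ND heads. It rested on 12.2, 2.9 and 6.1 estimated fragments on HFD, against 4.0, 2.1 and 7.1 on ND. Gr64c was at 0.804, 0.245 and 0.330 FPKM on HFD, against 0, 0 and 1.05 FPKM on ND. Gr64e, which is needed for glycerol taste, was at 0.349, 0 and 0.788 FPKM on HFD, against 0.219, 0.381 and 0.410 FPKM on ND.

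The Gr64 genes lie in tandem on chromosome 3L, and their annotated transcripts run into each other. Gr64b and Gr64c share 2858 exon bases, and Gr64d and Gr64e share 2882, so the split of reads between neighbours is uncertain and the cluster is better read as a sum. Gr64a to Gr64f together were at 2.10, 0.625 and 1.67 FPKM on HFD, against 0.513, 0.892 and 2.62 FPKM on ND. ND replicate 3 was again the highest library, and HFD replicate 2 lay below ND replicate 2. Gr43a, the fructose receptor that also acts in the brain, was above 0 only in HFD replicate 2, at 0.562 FPKM, and in ND replicate 3, at 0.310 FPKM. Gr61a, a further sugar receptor gene, was listed at 0 throughout.

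**Figure D3:**
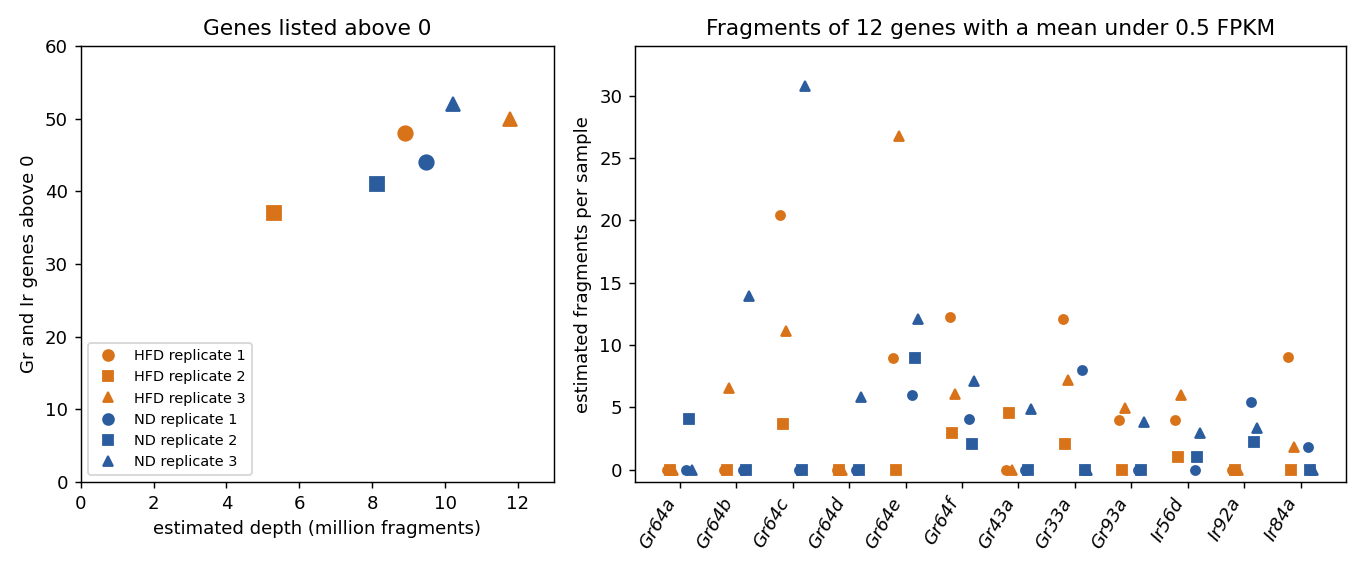
Left, the number of Gr and Ir genes above 0 in each sample against its estimated depth in M fragments; right, the estimated fragments per sample for 12 genes with a mean under 0.5 FPKM, HFD (orange) left of ND (blue). HFD replicate 2, with 5.30 M fragments, had 37 genes above 0, the lowest number, and most of the sweet, bitter and acid receptor genes shown rested on 0 to 12.2 fragments per sample.

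The carbon dioxide receptor is built from Gr21a and Gr63a in antennal neurons. Gr63a had 0.659, 1.01 and 0.501 FPKM on HFD, against 0.429, 0.481 and 1.42 FPKM on ND, with the highest value in ND replicate 3. Its log2 difference was -0.01 ± 0.27 (SE) over all samples and 0.23 without ND replicate 3. Gr21a was at 0, 0 and 0.153 FPKM on HFD, against 0, 0.220 and 0.348 FPKM on ND, from at most 7.9 estimated fragments.

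Gr28b, whose transcripts encode receptors of warmth and bright light, was the only one of the 7 tested Gr genes whose diets did not overlap. It had 0.720, 0.705 and 0.793 FPKM in HFD heads, against 0.406, 0.381 and 0.547 FPKM in ND heads. All HFD samples lay above all ND samples, with means of 0.739 ± 0.0471 FPKM on HFD and 0.444 ± 0.0897 FPKM on ND (SD, n = 3 each), a ratio of 1.66. With an ND mean under 0.5 FPKM, Gr28b reached the tested level only through its HFD samples. The log2 difference was 0.27 ± 0.15 (SE), with an interval of -0.11 to 0.64, a limma p of 0.129 and an adjusted p of 0.881. These values rested on 10.2, 6.0 and 14.9 estimated fragments on HFD, against 6.1, 4.9 and 8.9 on ND. Gr28b (FBgn0045495) lies on chromosome 2L from 7454826 to 7462247 on the minus strand with 5 transcripts, and the tables give a single value for all of them.

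Among the 24 Gr genes with no role in the lists, 18 were listed at 0 throughout and 2 were tested. Gr10a had 1.19, 1.94 and 1.16 FPKM on HFD, against 1.19, 1.69 and 1.65 FPKM on ND. Its whole transcript of 2819 bases is shared with the odorant receptor gene Or10a on the same strand, so its level is uncertain. The sum of the 2 genes was 1.81, 2.66 and 1.93 FPKM on HFD, against 1.67, 2.09 and 2.12 FPKM on ND. Gr94a had 1.10, 0.466 and 0.559 FPKM on HFD, against 1.17, 1.72 and 0.882 FPKM on ND, a log2 difference of -0.40 with a limma p of 0.124 and an adjusted p of 0.869. It lies within an intron of p53 on the opposite strand. Over this class, the summed levels were 2.80, 2.40 and 2.43 FPKM on HFD, against 3.03, 3.41 and 3.02 FPKM on ND, and the HFD samples lay below the ND samples. This sum was not tested. Its means were 2.54 FPKM on HFD and 3.15 FPKM on ND, and most of that gap lay in Gr94a. The means of Gr94a were 0.708 FPKM on HFD and 1.26 FPKM on ND, against 1.43 and 1.51 FPKM for Gr10a. Without Gr10a, a sum taken after the values had been seen, the diets overlapped. That sum was 1.61, 0.466 and 1.27 FPKM on HFD against 1.85, 1.72 and 1.37 FPKM on ND. The heat, light and internal class, which is mostly Gr28b, lay the other way without overlap, at 0.720, 0.705 and 0.9896 FPKM on HFD against 0.406, 0.381 and 0.699 FPKM on ND. HFD replicate 2 and ND replicate 3 were almost level, and this sum was not tested. Over all 5 genes listed for this role, some of them counted here in another class, the diets overlapped. Those sums were 0.720 to 1.27 FPKM on HFD and 0.381 to 1.01 FPKM on ND.

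**Figure D4:**
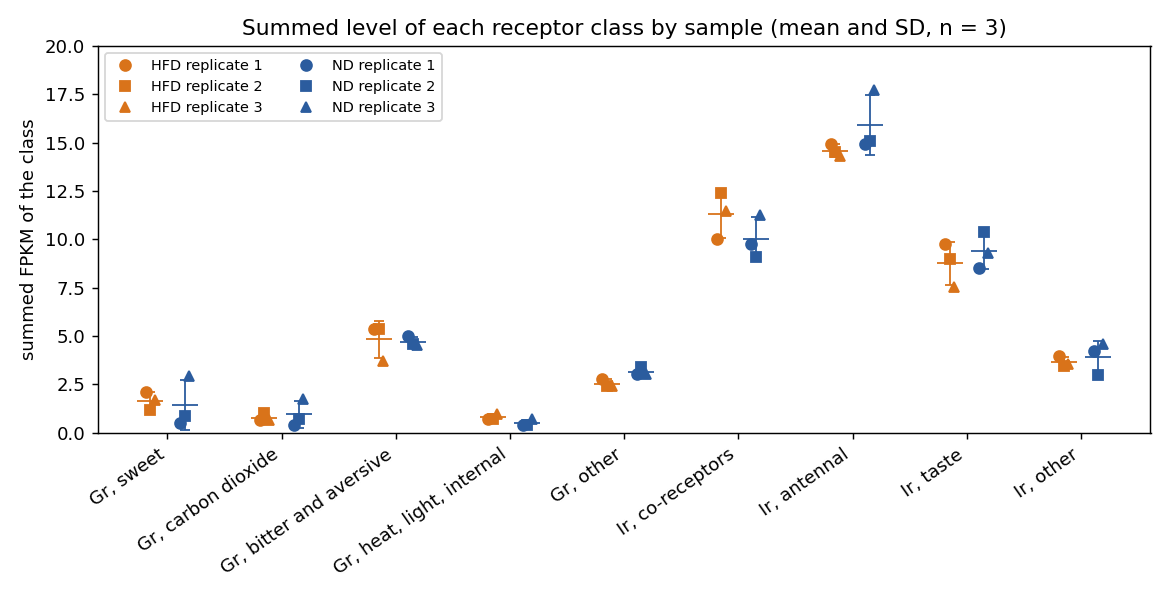
Summed FPKM of the genes of each role class in each sample, HFD (orange) left of ND (blue), with the mean and SD of the 3 samples of a diet. The antennal Ir class was highest, at 14.3 to 14.9 FPKM on HFD and 14.9 to 17.7 FPKM on ND, and the sweet class had its highest value, 2.93 FPKM, in ND replicate 3.

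Summed over each family, the diets were close. The 58 Gr genes together were at 11.7, 10.7 and 9.49 FPKM in HFD heads, against 9.37, 9.99 and 12.9 FPKM in ND heads. The means were 10.6 ± 1.09 FPKM on HFD and 10.8 ± 1.91 FPKM on ND (SD, n = 3 each), with a log2 ratio of -0.02. The 59 Ir genes together were at 38.3 ± 1.24 FPKM on HFD and 39.3 ± 3.06 FPKM on ND (SD, n = 3 each), with a log2 ratio of -0.04. In both families the highest sum was that of ND replicate 3, and the differences between means were smaller than the SD of either diet. Without ND replicate 3 the direction turned, to a log2 ratio of 0.13 for Gr genes and 0.03 for Ir genes.

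No Gr or Ir gene passed the test between HFD and ND. With limma, 0 of 22 tested members had an adjusted p under 0.05, where 0.0478% of all tested genes did. In either direction taken alone, the background was 0.0239% higher and 0.0239% lower on HFD. At an unadjusted p under 0.05 the count was also 0 of 22, where 6.71% of all tested genes passed, 3.11% higher and 3.6% lower on HFD. With a change of over 2-fold asked for as well, it was again 0 of 22, against 0.682% higher and 0.431% lower among all tested genes. The log2 difference was above 0 for 10 members and below 0 for 12, against 42.8% and 57.2% of all tested genes. For Ir40a, counted among the 10, the mean FPKM itself was slightly lower on HFD, at 0.581 FPKM against 0.603 FPKM on ND. The median log2 difference was -0.03 over the members and -0.03 over all tested genes, the second of which was 0.01 without ND replicate 3. Adjusted p-values of the members ran from 0.783 to 0.998. Standard errors of the log2 difference ran from 0.12 to 0.46, so that intervals for several low genes, such as Ir75d and Gr63a, leave room for a sizeable difference either way.

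Samples of the 2 diets did not overlap for Ir76b and Gr28b, both higher on HFD (2 of 22, against 4.54% of all tested genes), and for Ir68a, lower on HFD (1 of 22, against 8.07%). In either direction this was 3 of 22 (13.6%), close to the 12.6% of all tested genes. Gr28b reached the tested level only through its HFD samples, so its place in this count is not independent of them. Under the tested level, Ir75c and Ir60d were higher on HFD without overlap (2 of 53, against 1.83% of 1584 genes), and Ir92a was lower (1 of 53, against 3.41%). In estimated fragments, which are not scaled for depth, Ir75c and Ir60d did not separate the diets. Ir75c had 2.7 in HFD replicate 2 against 3.0 in ND replicate 2, and Ir60d had 1.0 in both HFD replicate 2 and ND replicate 3. For Ir76b the log2 difference was 0.43 without ND replicate 3, with a limma p of 0.0245 and an adjusted p of 0.315. For Ir68a it was -0.48 without that library, with a limma p of 0.041 and an adjusted p of 0.374. Neither reached the adjusted threshold with or without ND replicate 3.

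**Figure D5:**
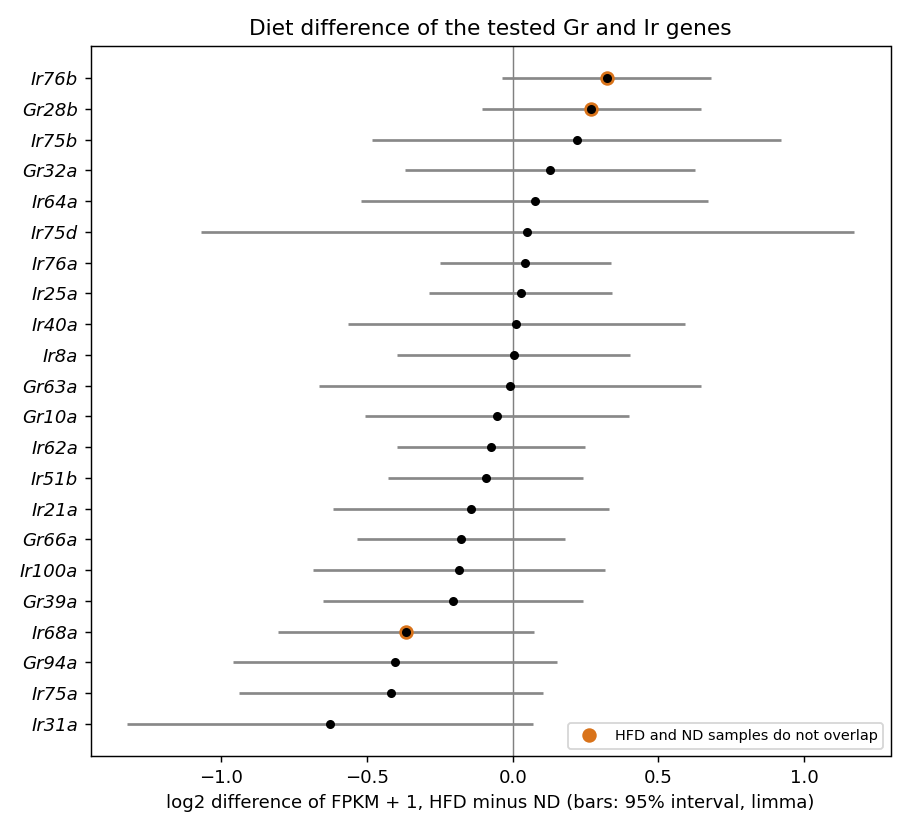
Log2 difference of FPKM + 1, HFD minus ND, for the 22 tested Gr and Ir genes, with the 95% interval from limma; larger orange points mark the genes whose HFD and ND samples did not overlap. Every interval spans 0, and the points run from -0.63 for Ir31a to 0.32 for Ir76b.

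Genes that work beside these receptors in taste and chemosensory neurons were set beside them. Of 20 listed, 15 were in the tables and 11 were tested, and 5 of these had a higher and 6 a lower mean on HFD. With limma, 0 of 11 passed an adjusted or an unadjusted p of 0.05. Several were far above any receptor, with Ggamma30A at 1266, trpl at 580 and norpA at 149 FPKM on average, against 8.14 FPKM for Ir76a. Whole-head values do not separate taste neurons from other head cells, so this count says little about taste neurons alone. The log2 differences of the 11 genes ran from -0.17 to 0.24, and the lowest limma p was 0.169, adjusted 0.915, for alka, a chloride channel of alkaline taste. It had 11.2, 14.96 and 12.2 FPKM on HFD, against 9.54, 9.95 and 12.6 FPKM on ND. Odorant-binding protein genes of taste organ support cells, all 6 of which were in the tables and none of which was at 0 throughout, summed to 478 to 564 FPKM on HFD and 389 to 555 FPKM on ND.

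The tested members also differed in how cleanly their reads could be assigned. In the BDGP6 annotation, 12 of the 22 neither lay within another gene nor shared exon bases with one. Another 5 lay within an intron of another gene, and 5 shared exon bases. Of the genes without overlap between diets, Ir76b, Gr28b and Ir68a were among the 12. Ir76a shares 297 exon bases with CG14102 on the opposite strand, which was at 2.50 to 3.41 FPKM. Gr32a shares 164 with CG6230 on the opposite strand, which was far higher, at 15.8 to 21.6 FPKM.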

How the data were processed

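Poly(A) RNA of fly heads was sequenced on an Illumina HiSeq by the authors, who kept uniquely mapped reads. The submitters' processing notes name HISAT. The genome build, the annotation, the counting tool and the strand setting are not given in the sources used here. The authors deposited FPKM per gene for each sample, while the deposited description calls the unit RPKM. Each table has 12138 rows for 11922 identifiers, and the first row of an identifier was used.

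Symbols came from a reference table of FlyBase names (11794 identifiers matched), and positions and overlaps from the BDGP6 annotation. HFD was compared with ND (n = 3 each) with limma 3.58.1 in R 4.3.3, on log2(FPKM + 1), with a variance trend and no covariate, for genes averaging 0.5 FPKM or more. Single genes also had an exact permutation test. Low FPKM values are near multiples of the value of 1 fragment. The depth of each sample was chosen to bring these values closest to whole numbers. At the chosen depths, 62.9% to 71.0% of them lay within 0.15 of a whole number, where an even spread would give 30.0%. The share comes from the values that set the depth, so it is no independent check. The estimated depths were 5.30 to 11.8 M fragments, and whole reads were not recovered for a count test. Fragment numbers used the longest annotated transcript, so they are high for a gene with several transcripts, and counting error only is covered. The limma script was tested on simulated data.

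Named are the genes of the role lists where a role is described, the 10 Gr and the 10 Ir genes with the highest mean, the 5 members with the smallest p in each direction, and every tested member without overlap between diets. The members, lists and this rule were chosen with earlier results of these data known. Alternatives were another pseudocount, other filters, median-ratio and quantile scaling, other variance models, summed rows, a replicate block and each sample left out. Sequences of the genes were not used here.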

Additional observations from a re-analysis of the deposited data

How the results depend on the processing

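None of the Gr and Ir genes passed the adjusted threshold under any alternative run. Those with an unadjusted p under 0.05 numbered 0 higher and 0 lower on HFD. Higher members came to 1 with no filter (Gr28b), with median-ratio scaling (Ir76b), with limma without trend (Gr28b) and with unmoderated variance (Gr28b), and lower members to 2 with no filter (Ir31a and Ir92a). With single samples left out, they ran from 0 to 1 higher and from 0 to 1 lower, namely Ir75a without HFD replicate 3, Ir31a without ND replicate 1, and Ir76b higher and Ir68a lower without ND replicate 3. Over all genes, 4 passed the adjusted threshold, against 7 with median-ratio scaling, 1 with unmoderated variance and 1 with the replicate block. With single samples left out, the adjusted count ran from 1 to 5 and the unadjusted count, 561 with all samples, from 377 to 1048, the highest without ND replicate 3. The number of members counted as measured was 22 at a mean of 0.5 FPKM, 75 above 0 in any sample, 41 at 0.1 FPKM and 10 at 1 FPKM.

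Of 330 alternative log2 differences of single members, 24 changed sign, in 9 members, all with log2 differences near 0. In fits with all samples these were Gr63a (0.042 with pseudocount 0.1 and 0.0089 with median-ratio scaling), Ir8a (-0.0032 with pseudocount 0.1 and -0.027 with quantile normalization) and Ir40a (-0.023 with quantile normalization). With single samples left out, the ranges were -0.20 to 0.021 for Gr10a, -0.14 to 0.23 for Gr63a, -0.064 to 0.12 for Ir25a, -0.20 to 0.17 for Ir40a, -0.15 to 0.016 for Ir62a, -0.094 to 0.23 for Ir64a, -0.30 to 0.42 for Ir75d, -0.027 to 0.13 for Ir76a and -0.12 to 0.065 for Ir8a. The cause of these changes was not tested. Deviations of same-numbered samples from their diet means correlated at 0.31, -0.51 and -0.36. The highest correlation, 0.55, was between HFD replicate 2 and ND replicate 3, the samples of each diet with the lowest midgut sum. Whether the numbers mark pairs or batches cannot be told from these values. With the replicate block, no member passed an unadjusted p of 0.05. Members with fewer than 10 fragments in all could not be compared at this depth.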
